A study of Caenorhabditis elegans with 2 samples.

Results

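Peaks beside nuclear tRNA genes made up a small but strong portion of the sites recorded for the tagged nuclear hormone receptor NHR-11 in larvae of the nematode Caenorhabditis elegans. They were chosen by position alone: a peak of the pooled list was a member when its summit lay within 500 bp of a nuclear gene that the Ensembl annotation calls a tRNA gene. This rule kept 354 of the 13271 nuclear pooled peaks (13299 with the mitochondrial ones), a share of 2.67% (95% Wilson interval 2.41 to 2.96, counting error only). Sequence within 500 bp of a tRNA gene covers 0.571% of the nuclear genome. The peaks came from ChIP-seq, which recovers the DNA bound by a protein with an antibody and sequences it, on whole L2 larvae of pooled male and female sex. The strain was OP305, which has the unc-119(ed3) mutation on chromosome III and the integrated transgene wgIs305 that carries nhr-11 fused to eGFP; the antibody label reads nhr-11. There was 1 group of 2 biological replicates. No untagged strain, other factor or second stage was among the samples, so values beside other nuclear peaks and other gene classes are descriptions, and no test between conditions was possible. Whole animals mix all tissues, so the cells behind a peak cannot be told apart.

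The pooled list holds unthresholded peaks and background, called on the reads of both replicates together, and the thresholded list is the stricter set kept after the replicates were compared by irreproducible discovery rate. Each peak carries a signal value, the peak caller's own, whose scaling the sources used here do not state. It serves below only to rank and describe peaks within 1 list. The lists hold no read counts, and the depth of the 2 libraries is therefore unknown.

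Transfer RNAs carry amino acids to the ribosome, and their genes are copied by RNA polymerase III. The promoter of a tRNA gene lies inside the gene, as an A box near the start and a B box near the end. The factor TFIIIC binds both boxes and places TFIIIB just upstream, TFIIIB recruits the polymerase, and transcription stops at a run of T after the gene. NHR-11 belongs to the nuclear hormone receptors, a family of DNA-binding factors that is enlarged in nematodes and is not part of the polymerase III machinery.

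The genes below show what the peaks surround: genes beside strong peaks, genes of large clusters, and genes of the same isotypes (the amino acid that the tRNA carries) with no peak in any list. Each sequence is the gene on its coding strand, 5′ to 3′, and the 20 bases after it, from the RefSeq genome on build WBcel235, which is ce11. Capitals mark the core of the B box, GTTCNANNC, and the first TTTT after the gene. Beside strong peaks lay the genes F57F5.t1 (tRNA-Ile, chrV:12002176-12002260, + strand), C04A11.t1 (tRNA-Leu, chrX:13665555-13665673, + strand), T23F1.t1 (tRNA-Lys, chrV:15465086-15465158, + strand), C18A11.t2 (tRNA-Arg, chrX:8036685-8036757, − strand), F15G9.t1 (tRNA-Ala, chrX:9743589-9743660, + strand) and F46G11.t2 (tRNA-Pro, chrX:5801211-5801282, − strand). Large clusters gave F28H6.t2 (tRNA-His, chrX:14135045-14135116, + strand) and H08J11.t5 (tRNA-Gln, chrX:9090627-9090698, − strand). Genes with no peak in any list were Y51A2B.t1 (tRNA-Ile, chrV:18373963-18374036, − strand), T22C8.t1 (tRNA-Leu, chrII:8631957-8632040, − strand), ZK994.t1 (tRNA-Lys, chrV:8495302-8495374, + strand) and C36C9.t2 (tRNA-Arg, chrX:1698674-1698746, + strand).
F57F5.t1: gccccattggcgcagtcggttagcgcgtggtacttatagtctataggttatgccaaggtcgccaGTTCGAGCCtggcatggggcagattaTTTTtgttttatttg
C04A11.t1: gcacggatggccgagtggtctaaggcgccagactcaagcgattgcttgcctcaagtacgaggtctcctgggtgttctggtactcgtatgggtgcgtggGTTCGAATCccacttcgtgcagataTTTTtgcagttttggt
T23F1.t1: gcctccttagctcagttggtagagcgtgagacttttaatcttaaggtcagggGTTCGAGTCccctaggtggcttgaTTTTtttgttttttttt
C18A11.t2: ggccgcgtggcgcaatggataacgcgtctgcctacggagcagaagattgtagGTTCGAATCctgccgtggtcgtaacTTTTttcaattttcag
F15G9.t1: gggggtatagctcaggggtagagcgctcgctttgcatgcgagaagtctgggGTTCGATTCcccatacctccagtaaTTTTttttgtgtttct
F46G11.t2: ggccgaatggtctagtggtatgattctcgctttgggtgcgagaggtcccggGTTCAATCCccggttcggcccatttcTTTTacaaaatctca
F28H6.t2: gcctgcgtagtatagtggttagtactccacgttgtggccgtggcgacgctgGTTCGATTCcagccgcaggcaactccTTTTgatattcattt
H08J11.t5: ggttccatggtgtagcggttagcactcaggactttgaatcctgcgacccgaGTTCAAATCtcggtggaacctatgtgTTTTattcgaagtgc
Y51A2B.t1: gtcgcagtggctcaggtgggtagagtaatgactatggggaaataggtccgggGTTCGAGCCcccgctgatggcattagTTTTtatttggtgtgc
T22C8.t1: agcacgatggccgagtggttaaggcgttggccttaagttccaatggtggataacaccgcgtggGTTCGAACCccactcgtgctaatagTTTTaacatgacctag
ZK994.t1: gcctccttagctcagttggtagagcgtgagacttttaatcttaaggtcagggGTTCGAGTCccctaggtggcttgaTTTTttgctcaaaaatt
C36C9.t2: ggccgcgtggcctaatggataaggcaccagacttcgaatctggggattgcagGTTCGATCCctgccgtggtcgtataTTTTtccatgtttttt

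A B box core and a T run stood in all of the genes shown, with and without a peak. T23F1.t1 and ZK994.t1 have the same 73 bases, 1 of 14 copies of this tRNA-Lys gene. The first lay beside a peak of signal 39.3, while the nearest pooled summit to the second was 5197 bp away. The summit beside T23F1.t1 was also close to a neighbouring tRNA-Pro gene, T23F1.t2, so the peak cannot be given to the lysine gene alone.

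Signal was higher at the members than at most other peaks of the same list. The pooled signal of the 354 members ran from 8.36 to 57.9 with a median of 15.1, against a median of 10.6 for the other 12917 nuclear peaks. The highest values of all were not at tRNA genes, since other nuclear peaks reached 202.5. Of the members 138 were among the strongest 10% of the list (39.0%, 95% Wilson interval 34.0 to 44.2), a set that holds 10% of all nuclear peaks by construction. In the thresholded list were 38 members, or 10.7% (7.92 to 14.4), against 1.91% of all nuclear peaks and 1.67% of the peaks that were not members. These 38 made up 14.96% of the 254 thresholded nuclear peaks. Among the members this list followed pooled signal: the 38 were the strongest, down to 27.5, and the next member, at 27.2, was outside. The thresholded share thus restates pooled signal and is not a separate measure of agreement between replicates. Within that list the members were not the stronger ones, with a median signal of 31.5 (27.5 to 57.9) against 33.4 for the others.

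Most members had a peak in each replicate's own list. A peak overlapping the pooled one by 1 bp or more was found in both lists for 267 of the 354 members (75.4%, 70.7 to 79.6), against 51.1% of all nuclear pooled peaks. Replicate 1 alone had 56 of the others, replicate 2 alone had 30, and 1 member had a peak in neither list. All 38 thresholded members were in both lists. The thresholded list was made by comparing the same 2 replicates and holds the strongest members, so this was favoured beforehand. Because the pooled calls use the reads of both replicates, some overlap is built in for every pooled peak.

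The members also stood above the middle of each replicate's list. In replicate 1 their median signal was 10.2 (range 4.14 to 43.8, 323 members) against 5.63 for all nuclear peaks of that list, and in replicate 2 it was 6.85 (2.78 to 24.4, 297 members) against 4.15. Each value is that of the strongest replicate peak overlapping a member. Each whole list also holds peaks that overlap no pooled peak, so pooled peaks of any kind were favoured in this comparison. The order of the members, however, was only loosely shared. Over the 267 members in both lists the signals had a Pearson correlation of 0.33 on log2 values and a Spearman correlation of 0.30, beside 0.34 and 0.21 over all 6782 pooled peaks found in both. These points share 2 libraries and were selected on pooled signal, and some pooled peaks overlap the same replicate peaks. Counting each pair of replicate peaks once left 237 points for the members, with correlations of 0.32 and 0.29. The distinct replicate peaks behind the members numbered 289 in replicate 1, with a median signal of 10.1, and 264 in replicate 2, with 6.74. In both replicates at once, 77 members (21.8%) were among the strongest 10% of the list, against 6.06% of all nuclear pooled peaks.

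**Figure D1:**
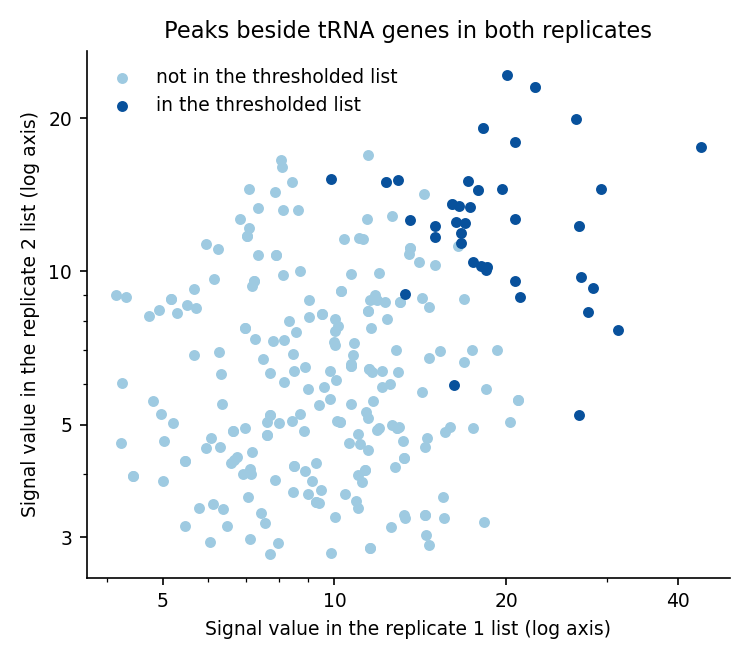
Signal value of the 267 peaks beside tRNA genes that were found in both replicate lists (237 distinct pairs of replicate peaks), replicate 1 on the horizontal and replicate 2 on the vertical axis, both logarithmic. Each point is 1 pooled peak, dark for the 38 of the thresholded list, and peaks that share both replicate peaks coincide; the cloud is broad (Spearman correlation 0.30) and the dark points sit towards its upper right.

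The strongest member lay on a tRNA-Gly gene of the X chromosome, M02F4.t1 (peak at X, 3035975 to 3036404). Its signal was 57.9 in the pooled list, rank 20 of 13271, and it was 43.8 in replicate 1 and 17.6 in replicate 2. The pooled summit was inside the gene, 25 bp before the B box core. In each replicate the summit of the overlapping peak lay outside the gene, before its 5′ end. This gene is 1 of a pair of neighbouring tRNA genes, and both lie within reach of the pooled summit.

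Next came F57F5.t1, a tRNA-Ile gene with an intron on chromosome V (peak at 12001973 to 12002402), whose sequence is printed above. The signal was 44.8 pooled, 29.4 in replicate 1 and 14.5 in replicate 2, with the summit 12 bp into the gene. It was a lone gene between protein-coding genes, and the best member of its chromosome. C04A11.t1, a lone tRNA-Leu gene on X (peak at 13665352 to 13665781), had 43.2 pooled, 22.5 in replicate 1 and 23.0 in replicate 2. Here too the summit fell 12 bp into the gene.

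Lysine tRNA genes were frequent at the top, with 5 among the 15 strongest members. K11E4.t6 on X had a pooled signal of 42.5, with 26.5 in replicate 1 and 19.9 in replicate 2. T23F1.t1 on V had 39.3, with 18.2 and 19.1 in the replicates. W03G11.t1 on X had 39.2, with 27.0 and 9.73. Lysine genes are also numerous, at 7.52% of the tRNA genes and as the nearest gene of 39 of the 354 members. A thresholded peak stood at 15.2% of lysine genes, beside 15.9% of arginine and 14.8% of glutamine genes. C33G3.t2 on X had 36.6, with 26.8 and 12.3, and W09G10.t2, the strongest on chromosome II, had 35.7, with 20.7 and 12.7.

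Replicates ranked several of the other strong members quite differently. F46G11.t2 (tRNA-Pro, X) had a pooled signal of 34.2, and its peak was rank 53 in replicate 1 (26.9) but rank 7707 in replicate 2 (5.23). C18A11.t2 (tRNA-Arg, X) had 36.1 pooled, 31.4 in replicate 1 at rank 29, and 7.68 in replicate 2 at rank 2192. F52H2.t1 (tRNA-Asp, X) had 36.2 pooled, 27.8 in replicate 1 at rank 45, and 8.31 in replicate 2 at rank 1582. Each of these stood on replicate 1 far more than on replicate 2. F15G9.t1 (tRNA-Ala, X) was nearer the reverse, with 35.8 pooled, rank 156 in replicate 1 (20.1) and rank 28 in replicate 2 (24.4). These are ranks of peaks that overlap the pooled one, and their summits can lie apart. For F46G11.t2 and C18A11.t2 the replicate 2 summit was over 100 bp from the pooled one. For F15G9.t1 the 2 replicate summits lay on either side of it. The remaining members among the strongest 15 were C28G1.t1 (tRNA-Glu, X, 40.5 pooled, 20.7 and 17.9 in the replicates), C53C7.t2 (tRNA-Ser, X, 39.7 pooled, 28.4 and 9.27) and F13G11.t1 (tRNA-Arg, 32.9 pooled, 17.5 and 10.4). F13G11.t1 was the strongest on chromosome IV, with a summit 233 bp downstream of the gene. On chromosome III the strongest was F42A10.t1 (tRNA-Ser, 31.8 pooled, 17.1 and 15.1), and on chromosome I it was C37A2.t1 (tRNA-Cys, 28.6 pooled, 9.87 and 15.2).

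Summits gathered closely around the tRNA genes. The summit was inside the nearest gene for 109 members (30.8%), upstream of it for 135 (38.1%) and downstream for 110 (31.1%). Within 100 bp of the gene lay 282 members (79.7%) and 34 of the 38 thresholded ones. The window of 500 bp was therefore far wider than the crowd, and signal fell with distance in the same way. The 109 members with the summit inside a gene had a median signal of 17.7, and the 173 at 1 to 100 bp had 15.7. It was 10.9 for the 32 members at 101 to 200 bp, 10.4 for 27 at 201 to 300 bp, 9.61 for 6 at 301 to 400 bp and 11.4 for 7 at 401 to 500 bp. These outer values are close to the median of 10.6 for nuclear peaks that were not members.

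Peaks on both sides of the 500 bp limit were alike in strength. Just inside it were the peaks beside VK10D6R.t1 at 483 bp (signal 9.28), B0285.t1 at 487 bp (12.4), F23D12.t1 at 492 bp (10.9), K03B8.t1 at 496 bp (9.23) and C26G2.t1 at 498 bp (12.2). Just outside were those beside C03B1.t1 at 510 bp (18.3), K09C8.t1 at 521 bp (9.20), F22B7.t5 at 543 bp (10.3), F10C1.t1 at 545 bp (13.0) and C28A5.t1 at 549 bp (13.95). From 501 to 600 bp there were 10 peaks with a median of 10.7, and from 901 to 1000 bp there were 17 with 10.9.

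Positions were also measured from the B box. Its core was searched on the coding strand of each gene and found in 587 of 612 tRNA genes (95.9%), starting at a median position of 53 from the gene's first base and 21 bases from its last. Of the members, 344 had a nearest gene with a core. Measured along the gene from the first base of the core, their summits had a median of −30 bp and quartiles of −75 and 48.5 bp, negative values being towards the 5′ end. Between −100 and 99 bp lay 246 of them (71.5%, 66.5 to 76.0), of which 157 were before the core and 89 from its first base on. The fullest stretch of 20 bp was −80 to −61, with 47 summits, which lies just upstream of the 5′ end of a typical tRNA gene. At 0 to 19 bp stood 35 summits, beside 33 at −60 to −41, 30 at −40 to −21 and 17 in the 20 bp before the core. Of the 35, 15 lay on the 9 letters of the core and 20 between it and the 3′ end of a typical gene. Both replicate lists had a summit within 100 bp of the pooled one for 48.6% of all members. Steps of 20 bp are thus finer than the agreement of the replicates, and the pattern describes pooled summits only.

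Weaker members had summits spread further towards the 3′ side. For the 38 thresholded members the median was −37.5 bp (quartiles −67.75 and 14.5), and 32 of them were between −100 and 99 bp. The strongest 25% of the members by signal had a median of −35.5 bp, with quartiles of −67.75 and 13.75 bp. The weakest 25% had a median of 18 bp, with quartiles of −66.25 and 170.75 bp, so the 5′ side was alike. Members beside lone genes (median −32 bp, n = 232) and beside clustered genes (−20 bp, n = 112) were placed much alike. Measured from the 5′ end of the gene the median summit was at 22 bp. Nearly all peaks of the list have the same width (430 bp for 13265 of 13271), so a summit is the centre of a wide region and not a contact site.

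**Figure D2:**
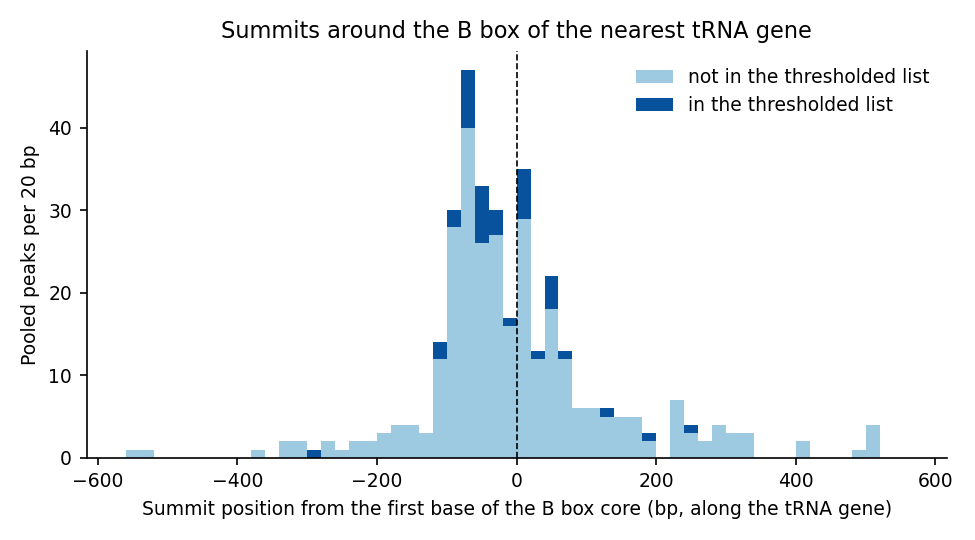
Position of the summit along the nearest tRNA gene, in bp from the first base of its B box core (dashed line), for the 344 members whose gene has a core, in steps of 20 bp; the height is the number of peaks, and dark bars are peaks of the thresholded list. The tallest bar, with 47 peaks, covers −80 to −61 bp, and a smaller one of 35 stands at 0 to 19 bp.

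The core itself was found within 50 bp of the summit, on either strand, in 118 members (33.3%, 28.6 to 38.4). The same letters were in the same window of 459 of the 12917 other nuclear peaks (3.55%) and of 4.35% of all nuclear pooled peaks. The core is part of nearly every tRNA gene, so a match here describes the window and is not a site of the receptor. In a promoter window of a protein-coding gene (1000 bp before to 500 bp after a 5′ end) lay 88 members (24.9%), against 31.8% of all nuclear pooled peaks. Only 3 members were also within 500 bp of a snoRNA, snRNA, miRNA or rRNA gene.

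Looked at from the side of the genes, 376 of the 612 nuclear tRNA genes had a pooled summit within 500 bp (61.4%, 57.5 to 65.2). The share was 70.9% in the longer list of replicate 1, 65% in that of replicate 2 and 8.17% (50 genes) in the thresholded list. Both replicate lists had a peak at 318 genes (52.0%). A single pooled peak stood at 324 genes, 51 genes had 2 and 1 gene had 3 or more. No pooled peak stood at 236 genes, whose nearest pooled summit was 506 to 48471 bp away with a median of 3138 bp. For 138 of these a peak was present in the list of replicate 1 or replicate 2. That left 98 tRNA genes (16.01%, 13.3 to 19.1) without a summit within 500 bp in any list. Per chromosome these were 25.8% of the tRNA genes on I (17 of 66), 22.5% on IV (16 of 71), 21.8% on V (17 of 78), 20.3% on III (13 of 64), 11.2% on X (31 of 276) and 7.02% on II (4 of 57).

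tRNA pseudogenes, degraded copies listed apart from the genes in RefSeq, had a peak in a smaller share of cases than tRNA genes. A pooled summit lay within 500 bp of 25 of 209 (12.0%, 8.23 to 17.1), and the shares were 26.8% in replicate 1 and 25.8% in replicate 2. Around the 5′ ends of protein-coding genes the pooled share was 16.6%, within that interval. The share for windows placed anywhere in the genome was not computed, so the low value does not show that pseudogenes lack peaks more than other sequence. Only 1 had a thresholded peak. Of the pseudogenes 78.9% hold a B box core, against 95.9% of tRNA genes, and 91.9% have TTTT within 30 bp after the gene, against 98.9%. Chromosome V holds 43.5% of them but 12.7% of tRNA genes.

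snoRNA and snRNA genes, the other short RNA classes counted, had a pooled peak less often than tRNA genes. Among snoRNA genes, whose RNAs guide the modification of other RNAs, the share was 153 of 346 (44.2%, 39.1 to 49.5). For snRNA genes, which encode RNAs of the spliceosome, it was 37 of 129 (28.7%, 21.6 to 37.0). The order of these 3 classes was the same in both replicate lists, with 56.9% and 59.2% for snoRNA genes and 37.2% and 34.9% for snRNA genes. Around the 5′ ends of protein-coding genes, 16.6% of 19973 had a pooled summit within 500 bp, on a window narrower by the length of a tRNA gene.

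**Figure D3:**
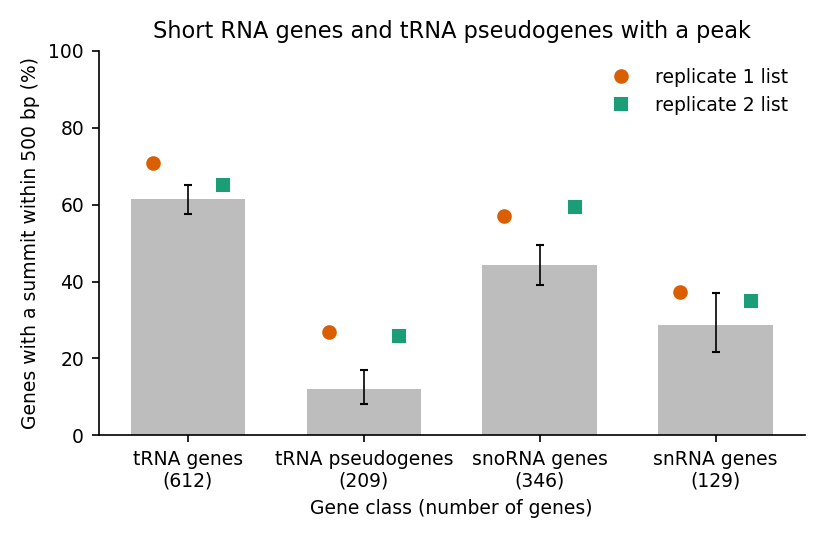
Percentage of tRNA genes (612), tRNA pseudogenes (209), snoRNA genes (346) and snRNA genes (129) with a summit within 500 bp. Bars are the pooled list with 95% Wilson intervals, and circles and squares are the lists of replicates 1 and 2; tRNA genes are highest in all 3 lists (61.4% pooled) and pseudogenes lowest (12.0% pooled).

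By chromosome, X and II had the highest shares of tRNA genes with a peak and V the lowest. X holds 276 of the 612 tRNA genes (45.1%), and 201 of them had a pooled peak (72.8%, 67.3 to 77.7), against 175 of 336 on the autosomes (52.1%, 46.7 to 57.4). Among the autosomes the share was 73.7% on II (42 of 57), 59.4% on III (38 of 64), 54.9% on IV (39 of 71) and 51.5% on I (34 of 66). On V it was 22 of 78 (28.2%, 19.4 to 39.0).

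V was nearer the other chromosomes in the replicate lists than in the pooled list. In replicate 1 a peak stood at 56.4% of the genes on V and in replicate 2 at 47.4%, against 80.4% and 71.0% on X. Without V the pooled share on the autosomes was 59.3%.

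X held 177 of the 354 members (50%) and 27 of the 38 thresholded ones (71.1%), beside 19.9% of all nuclear pooled peaks. Thresholded peaks stood at 36 tRNA genes of X (13.0%) and 14 of the autosomes (4.17%). The thresholded nuclear peaks that were not members lay on X in 45 of 216 cases (20.8%), and with the members included the share of X in that list was 28.3%. Signal was also higher on X: members had a median of 16.6 on X, 13.6 on the autosomes and 11.9 on V. In replicate 1 the medians were 11.2 on X, 9.94 on the autosomes and 10.3 on V, and in replicate 2 they were 7.29, 6.46 and 6.71. X was thus above the autosomes in all 3 lists, while V was below the autosomal median in the pooled list and above it in both replicate lists. Peaks that were not members had a median of 10.6 both on X and on the autosomes.

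**Figure D4:**
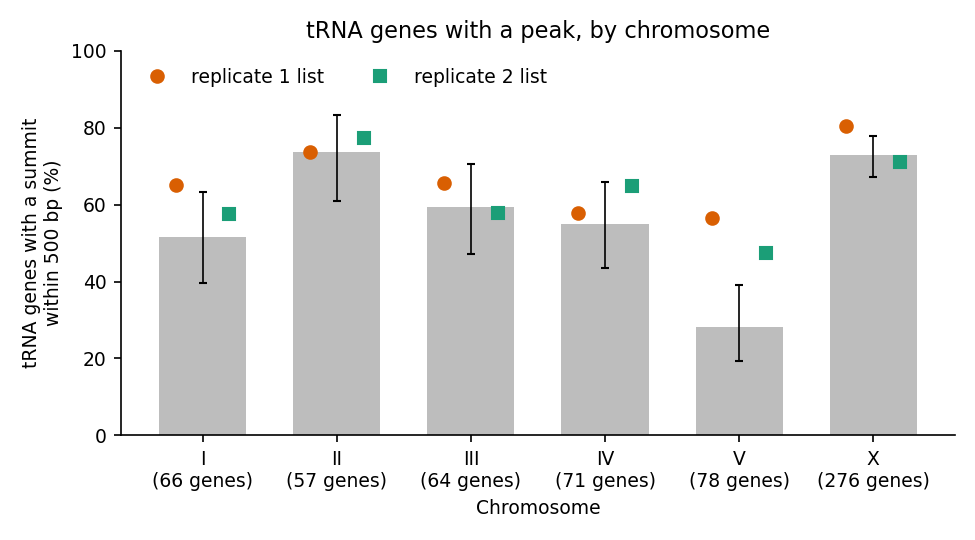
Percentage of the tRNA genes of each chromosome with a summit within 500 bp. Bars are the pooled list with 95% Wilson intervals, and circles and squares are the lists of replicates 1 and 2; X (72.8%) and II (73.7%) are highest, and V is lowest in the pooled list (28.2%), where both replicate lists lie above the bar.

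The share of tRNA genes with a peak was higher for clustered than for lone genes, with intervals that just overlap, and the shares were close on X. With a cluster defined as a run of tRNA genes at most 1000 bp apart, 236 genes fell into 100 clusters, 78 of them pairs, and 376 genes stood alone. A pooled peak was at 160 clustered genes (67.8%, 61.6 to 73.4) and 216 lone ones (57.4%, 52.4 to 62.3). On X the shares were 73.3% and 72.3%, and on the autosomes 60.4% and 48.5%; whether X and the autosomes differ in this was not tested. Replicate 1 gave 77.5% and 66.8% over all chromosomes, and replicate 2 gave 69.9% and 62.0%. A summit can serve several genes of a cluster, as 67 members had 2 or more tRNA genes within 500 bp and at most 5, so clustered genes are not independent of each other. Signal did not separate the classes, with a median of 14.997 for members beside clustered genes and 15.2 beside lone ones. Of the 100 clusters, 54 had a peak at every gene, 24 at some genes and 22 at none.

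The 4 clusters with 5 or more genes were all on X. F22F1.t2 to F22F1.t7 (8154445 to 8156707) mixes serine, aspartate, methionine and isoleucine genes, and 5 of its 6 genes had a pooled peak, at signals up to 23.7. K01A12 (8623603 to 8624532) has arginine and cysteine genes, all 5 within reach of a summit, with signals up to 15.1. H08J11 (9090627 to 9091628) has 5 glutamine genes, of which 4 had a peak, the highest at 28.5, with 16.7 in replicate 1 and 11.9 in replicate 2. The gene of this cluster printed above, H08J11.t5, had the weaker peak, with a signal of 8.66.

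F28H6 (14135045 to 14137010) was the exception among them. Its 6 histidine genes share 1 sequence, the one printed above, and none had a pooled peak. Replicate 1 had a peak of signal 4.93 at 2 of them and replicate 2 had none. The sequence around these genes is itself repeated: of the 31-base words in the 250 bp on each side, 3.18% to 88.6% occur once in the genome, with a median of 22.8% over the 6 genes. Reads from repeated sequence cannot be placed on 1 copy, and how the authors treated such reads is not stated in the sources used here; its part in the missing peaks was not tested.

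Each of the 20 standard amino acids had at least 1 tRNA gene with a pooled peak, and the share varied between isotypes. The shares were highest for glutamate (32 of 41, 78.0%, 63.3 to 88.0), lysine (35 of 46, 76.1%), glutamine (20 of 27, 74.1%) and leucine (28 of 39, 71.8%). They were lowest for asparagine (7 of 20, 35%, 18.1 to 56.7), histidine (8 of 20, 40%), tryptophan (5 of 12, 41.7%) and tyrosine (8 of 19, 42.1%). The remaining amino acids lay between alanine and phenylalanine at 50% and valine at 67.7%. With 12 to 55 genes an isotype most of the intervals overlap, and neighbours in this order do not differ beyond counting error. The single selenocysteine tRNA gene had no pooled peak and had a peak in the list of replicate 2. Of 5 genes with an undetermined isotype, 2 had a pooled peak.

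The low isotypes of the pooled list were not all low in the replicates. Asparagine genes had a peak in 65% of cases in replicate 1 and 50% in replicate 2, and tryptophan genes in 58.3% and 75%. Glutamate stayed high, with 78.0% and 75.6%, and histidine stayed low, with 55% and 45%, its 20 genes including the 6 of the F28H6 cluster.

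Each isotype's best member gives the range of signal. Beyond the 15 strongest, the highest pooled signal was 31.8 for threonine (ZK563.t1), 31.3 for glutamine (R04A9.t1), 28.7 for phenylalanine (T28B4.t1), 28.3 for tyrosine (C02B4.t2) and 27.0 for histidine (C06G1.t1). It was 25.2 for asparagine (F41D9.t3), 24.5 for methionine (T15B12.t1, a gene without a core match), 23.8 for tryptophan (B0523.t1), 22.9 for valine (T01B4.t4) and 12.3 for an undetermined isotype (K02D3.t1). No asparagine (20 genes), histidine (20), methionine (20), tryptophan (12) or valine (31) gene had a thresholded peak. Only 50 of all 612 tRNA genes had one (8.17%). The upper limits of the intervals for these isotypes, 11.0% to 24.2%, lie above that share, so the zeros do not set them apart.

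**Figure D5:**
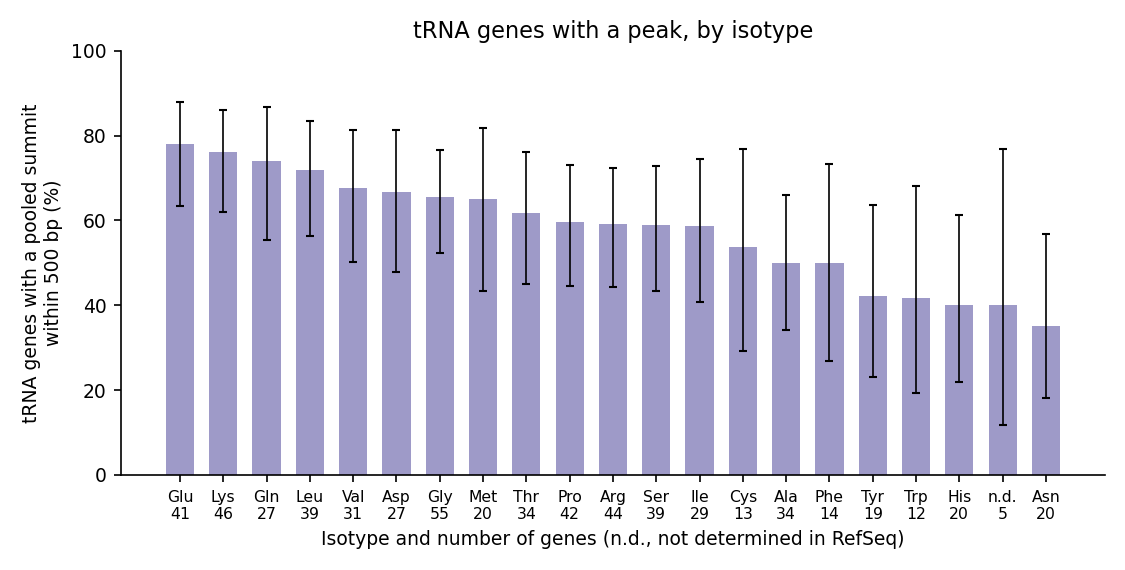
Percentage of tRNA genes with a pooled summit within 500 bp for each isotype with 5 or more genes; the number under each name is its genes, n.d. is an undetermined isotype, and error bars are 95% Wilson intervals. Shares run from 78.0% for glutamate to 35% for asparagine, and the intervals of neighbouring isotypes overlap widely.

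Copies of the same sequence often differed in whether they had a pooled peak. The 612 genes have 200 distinct sequences, and 469 genes have at least 1 identical copy. Of the 57 repeated sequences, 41 had copies both with and without a pooled peak, 11 had a peak at every copy and 5 at none. With a pooled peak at 61.4% of all tRNA genes, many sequences with several copies would be split even if copies were unrelated. The number to be expected was not computed, so the count of split sequences is only a description. The commonest, a tRNA-Gly sequence with 29 copies, had a peak at 22 of them. Sequences found once had a peak in 70 of 143 cases (49.0%, 40.9 to 57.1), those with 2 to 5 copies in 61.0%, with 6 to 15 in 64.9% and with 16 or more in 106 of 156 (67.9%, 60.3 to 74.8). For 474 genes (77.5%) no 31-base word inside the gene occurs once in the genome, so a read of that length from inside such a gene has more than 1 possible place.

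The shares by how much of the flanking sequence is unique were close except in the lowest class. A peak stood at 251 of 394 genes whose flanks were wholly unique (63.7%), at 48 of 80 with over 90% unique (60%) and at 76 of 125 with over 50% to 90% (60.8%). Where 50% or less was unique it stood at 1 of 13 (7.69%, 1.37 to 33.3), and 4 of these 13 genes are neighbours in the F28H6 cluster. The part of repeated sequence in this was not tested. Leaving those 13 genes out, the share of tRNA genes with a pooled peak was 62.6%.

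Genome context and gene structure separated the genes weakly. Between protein-coding genes 206 of 319 tRNA genes had a pooled peak (64.6%), inside a protein-coding gene on the opposite strand 77 of 123 (62.6%), and inside one on the same strand 93 of 170 (54.7%, 47.2 to 62.0). Of the 29 tRNA genes with an intron 15 had a peak, and of the 25 without a core match 13 did. Among the 7 genes without TTTT in the 30 bp after them, 2 had a peak.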

How the data were processed

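The members, gene classes and alternatives were chosen with earlier results of these data known. Peaks were called by the authors against a control alignment, for each replicate and for both combined, per the text files deposited beside the lists. The unthresholded calls fed the irreproducible discovery rate (IDR) procedure, which gave the thresholded list. The authors deposited a signal value per peak, the caller's own, and the offset of each summit in bp. Names and versions of the aligner and caller were not given in the sources used here. The control reads were not analysed here. Lists on build ce11 were used, and those on ce10 were not used. Coordinates are 1-based.

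Summits were assigned to the genes of Ensembl release 115 (WBcel235). Isotypes came from RefSeq products matched by WormBase identifier (612 of 612 matched), and tRNA pseudogenes from RefSeq. Sequences were read from the RefSeq genome of the same assembly. The B box core GTTCNANNC was searched on the coding strand, and where a gene held more than 1 match the one nearest the 3′ end was used. Each member took its nearest tRNA gene. Wilson intervals at 95% cover counting error only, and neighbouring genes can share a peak. Python 3.11.15, numpy 2.4.6, pandas 2.3.3, scipy 1.17.1 and matplotlib 3.10.9 were used. The assignment, clustering and merging steps were tested on simulated or small made-up data, and the B box and T run searches were not.

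Genes are named by rule: the nearest genes of the 15 members of highest pooled signal, the strongest member of each chromosome and isotype, the largest clusters, and the 5 peaks nearest each side of the window limit. With 1 group of 2 replicates, a replicate was left out in 3 ways. For the number of members and the shares of genes, as many of the strongest nuclear peaks of the other replicate's list were used as the pooled list has. For the median signal, the members' values in the other list were used. For the distance from the B box, all nuclear peaks of the other list beside a tRNA gene were used. Other alternatives were the window, the list, merging of overlapping peaks, the overlap rule and the cluster gap.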

Additional observations from a re-analysis of the deposited data

How the results depend on the processing

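Of 50 alternative values for 10 results, 26 stayed within the interval of the reported value (for counts, within a factor of 1.5) and 24 moved. The 354 members became 109 with the summit inside the gene, 38 in the thresholded list, 213 among the strongest 25% of the pooled peaks, and 288 to 360 when a replicate was left out. The share of tRNA genes with a pooled peak, 61.4%, was 56.4% at 250 bp, 69.6% at 1000 bp, 17.8% with the summit inside the gene, 8.17% in the thresholded list, 40.2% in the strongest 25%, and 48.7% to 60.5% with 1 replicate left out, the lower value without replicate 1. The share of members in both replicate lists, 75.4%, was 48.6% for summits within 100 bp and 64.7% for an overlap of at least 50% of both peaks, both stricter by construction. The median signal, 15.1, was 13.7 at 1000 bp, and 6.85 to 10.2 in the replicates' own lists, which have their own scale. With 1 replicate left out the share was 55.1% to 67.8% for clustered genes and 44.7% to 55.9% for lone ones. On X it was 57.2% to 71.4%, and on the autosomes 41.7% to 51.5%. Clustered stayed above lone and X above the autosomes in both, but the 500 bp window favours clustered genes in each case. Added after seeing the data, lone genes on X had 72.3%, clustered and lone genes on the autosomes 60.4% and 48.5%, and the autosomes without V 59.3%; the Spearman correlation of members, 0.30, was 0.29 with each pair of replicate peaks counted once. In the thresholded list X had 13.0% and the autosomes 4.17%. The median summit stayed before the B box core, at −37.5 bp in the thresholded list, −32 bp at lone genes and −16 to −15 bp in the replicates' own lists. No paired analysis was possible because the 2 replicates form 1 group and no test between groups was made. Depth is unknown and no untagged sample was among those analysed, so a peak here states a position in a list.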
